A study of Mus musculus with 8 samples.

Results

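The genes described here copy DNA and divide the cell. The set holds 36 genes, of which 15 act in DNA replication and the entry into S phase and 21 act in G2 and mitosis. Each gene was read from its brightest probe set, by mean intensity over the 8 arrays, among probe sets annotated to that gene alone. A probe set was found for 35 of the 36 members, all 15 replication genes and 20 of the 21 mitosis genes, out of 18193 genes with a probe set. All 35 passed the filter on low values, as did 13543 genes in all. Ccnb1, a mitotic cyclin, was not analysed here.

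RNA from mouse embryos was measured on 8 Affymetrix arrays, 4 of controls and 4 of mutants of FAK, the focal adhesion kinase. In each genotype, 1 array held cranial neural crest cells sorted by p75 from head and thorax tissue of 3 pooled E11.5 embryos, and the other 3 held 1 origin each, named LM, OFT or UM. The labels do not spell out those names, all 8 arrays carry the source head/neck, and only the series title gives a day for LM, OFT and UM. The allele, any Cre driver, the strain and how many embryos went into an LM, OFT or UM sample are not given in the sources used here. The gene for FAK, Ptk2, was not analysed here, so the genotype labels were not checked at the transcript level. Each origin and genotype has 1 array. Both genotypes of an origin therefore served as its 2 samples, and the p-values measure the spread among these arrays only.

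Cells that are about to divide first load the Mcm2 to Mcm7 helicase onto origins of replication with the help of Cdc6 and Cdt1, and cyclin E with its kinase then starts S phase. DNA synthesis needs the sliding clamp Pcna and the enzymes that make its building blocks, among them Rrm1, Rrm2 and Tyms. Entry into mitosis follows from cyclin A and B with Cdk1, after which Aurora and Polo kinases, kinesins and the Bub checkpoint proteins build the spindle and separate the chromosomes. Many replication genes are known targets of E2F factors, and many mitosis genes carry CCAAT boxes and the element called CHR in their promoters. In embryonic tissue these genes are known to be high in cycling cells and low in cells that have left the cycle.

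The promoters of 3 members are shown because these members differed most between p75-sorted cells and the other origins: Ccne1 was the replication member and Bub1b the mitosis member with the largest difference, and both were higher. Kif11, the mitosis member that was lowest there, was added after its values were seen. Tyms, the replication member that was lowest, was drawn by the same rule, and its window is not shown and held no match. Each run is the 250 bases before the start of the gene, 5′ to 3′ on the gene's strand, from RefSeq on GRCm38.p6, and capitals mark a match to 1 of the motifs described next.
Ccne1 promoter, chr7:38107491-38107740, minus strand: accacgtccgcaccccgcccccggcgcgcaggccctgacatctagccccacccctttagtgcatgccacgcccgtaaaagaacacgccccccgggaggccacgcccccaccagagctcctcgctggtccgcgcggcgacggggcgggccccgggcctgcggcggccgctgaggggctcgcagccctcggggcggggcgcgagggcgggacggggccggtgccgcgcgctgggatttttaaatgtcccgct
Bub1b promoter, chr2:118597961-118598210, plus strand: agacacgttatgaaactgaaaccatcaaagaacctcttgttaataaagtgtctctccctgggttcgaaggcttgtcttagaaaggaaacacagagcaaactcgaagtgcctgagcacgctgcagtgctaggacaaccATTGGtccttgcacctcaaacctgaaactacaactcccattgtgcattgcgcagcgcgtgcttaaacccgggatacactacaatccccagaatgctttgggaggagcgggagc
Kif11 promoter, chr19:37376132-37376381, plus strand: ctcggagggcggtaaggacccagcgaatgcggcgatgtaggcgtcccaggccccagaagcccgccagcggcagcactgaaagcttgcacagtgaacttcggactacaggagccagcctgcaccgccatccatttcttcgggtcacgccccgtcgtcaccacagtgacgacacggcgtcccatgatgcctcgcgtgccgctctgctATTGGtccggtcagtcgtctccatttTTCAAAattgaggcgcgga

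The motifs searched on both strands were the E2F words TTTCCCGC, TTTCGCGC, TTTGCCGC and TTTGGCGC, the CHR word TTTGAA and the word CCAAT. In the Bub1b promoter the capitals are CCAAT read on the other strand, 113 to 109 bases before the start. In the Kif11 promoter they are CCAAT on the other strand at 45 to 41 bases and the CHR word on the other strand at 19 to 14 bases. No match was found in the Ccne1 window, and no matches overlapped in the 3 windows. A promoter was matched for 29 of the 36 members, 12 replication and 17 mitosis genes. Aurkb, Ccna2, Ccne2, Gins2, Kif20a, Mcm4 and Tpx2 are named only.

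The motifs were counted apart in replication and mitosis members, with no test. An E2F word stood in 4 of 12 replication promoters, those of Cdc6, Mcm5, Mcm6 and Mcm7, and in 1 of 17 mitosis promoters, that of Cdk1, against 1.86% of all 32851 promoters. The CHR word stood in 6 of 17 mitosis promoters, those of Ccnb2, Cdc20, Cdk1, Kif11, Mki67 and Top2a, and in 1 of 12 replication promoters, that of Mcm2, against 16% of all promoters. CCAAT stood in 15 of 17 mitosis and 8 of 12 replication promoters, against 33.8% of all. These are matches of letters in a window and not shown binding sites.

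The p75-sorted arrays stood apart in array quality. For Gapdh, signal at the 3′ end over signal at the 5′ end came to 2.82 (control) and 4.91 (mutant) there and to between 0.7 and 0.986 on the remaining 6 arrays. For Actb this ratio was 1.42 to 1.94 over all 8. The 18S ribosomal RNA control read 6083 and 8542 after the sort, with 313.9 to 1228 elsewhere. The neural crest sort showed in its markers. Ngfr, which encodes p75, read 1043 and 1422 after the sort, with 47.05 to 149.1 elsewhere, and Sox10 read 1512 and 1620 against 25.33 to 57.53. The summed intensity of 8 cardiac genes was 18940 and 21510 on the OFT arrays and 67.52 to 2637 on the others. In tissue RNA, fewer cycling cells and less RNA of these genes per cell cannot be told apart.

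**Figure D1:**
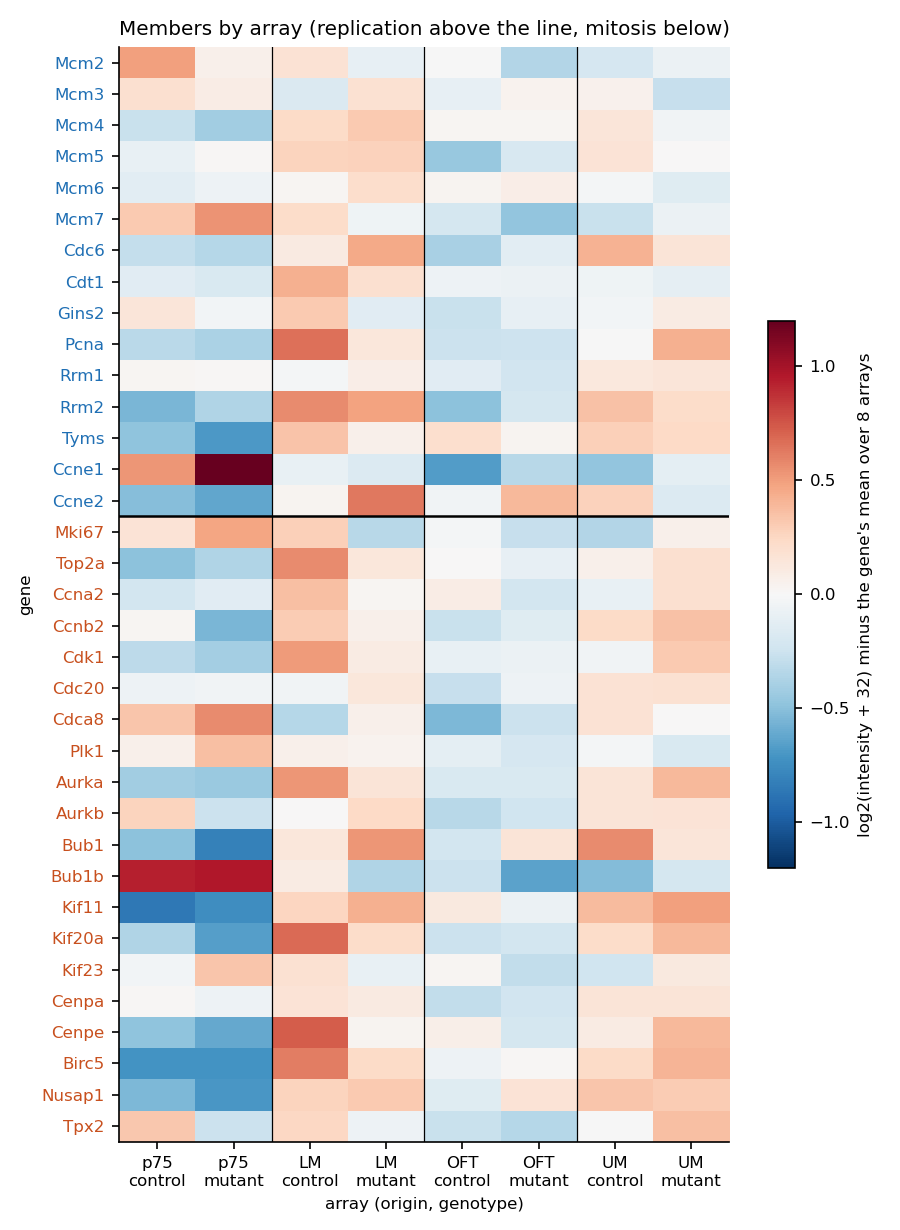
Each cell is a member's log2(intensity + 32) on 1 array minus that gene's mean over the 8 arrays. Columns are arrays by origin and genotype, and rows are the 15 replication members above the line and the 20 mitosis members below it. Ccne1 and Bub1b are high on both p75-sorted arrays, where Kif11, Birc5 and Nusap1 are low, and the LM control array has the highest median of both classes.

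All values were read as log2(intensity + 32), so that differences of dim genes are understated. Relative to each gene's mean over the 8 arrays, the median replication member lay at 0.22 on the LM control array and 0.18 on the LM mutant array. It lay at -0.13 on both OFT arrays. Among mitosis members the median was 0.26 and 0.10 on the LM control and mutant arrays, 0.15 and 0.19 on the UM arrays, -0.16 and -0.21 on the OFT arrays, and -0.14 and -0.31 on the p75-sorted arrays. LM and UM were thus the high origins for mitosis members, and OFT and p75-sorted cells the low ones.

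Some difference among the 4 origins passed limma's F test for 17 of the 35 members at a Benjamini-Hochberg adjusted p under 0.05, against 46.4% of all genes tested. The 17 were 7 replication members (Mcm7, Cdc6, Pcna, Rrm2, Tyms, Ccne1 and Ccne2) and 10 mitosis members (Top2a, Cdca8, Aurka, Bub1, Bub1b, Kif11, Kif20a, Cenpe, Birc5 and Nusap1). Their share lies near the background. The count fell when either p75-sorted array or the OFT mutant was left out, and the count over all genes was not taken in those fits.

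The widest differences were those of p75-sorted cells from the mean of LM, OFT and UM. Here 4 members were higher, 11.4%, against 28.3% of all genes, and 14 were lower, 40%, against 19% of all genes. The median difference was -0.12 over the replication members and -0.29 over the mitosis members, against 0.07 over all genes tested. The directions were mixed, with 9 of 15 replication and 13 of 20 mitosis members below 0 against 44.9% of all genes. The count of 18 called members fell when either p75-sorted array was left out, and so did the calls over all genes, in both directions.

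Among the replication genes, cyclin E split in direction. Ccne1, a cyclin E that starts S phase, read 567 and 1004 in p75-sorted cells, 358 and 338 in LM, 229 and 297 in OFT, and 266 and 351 in UM, with the control given before the mutant here and for all genes that follow. Both p75-sorted arrays lay above all 6 others, although they differed widely from each other. The difference was 1.23 ± 0.17 on the log2 scale (moderated SE, 2 against 6 arrays), 2.35-fold, with a limma adjusted p of 0.000132.

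Ccne2, the second cyclin E gene, went the other way. It read 245 and 224 in p75-sorted cells, 371 and 577 in LM, 351 and 485 in OFT, and 445 and 320 in UM. The p75-sorted arrays lay below all 6 others, and the difference was -0.75 ± 0.20 with an adjusted p of 0.00733.

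The enzymes of nucleotide supply were lower in p75-sorted cells or near the other origins, depending on the gene. Rrm2, the regulated subunit of ribonucleotide reductase, read 2310 and 2634 in p75-sorted cells, 5019 and 4744 in LM, 2396 and 2921 in OFT, and 4318 and 3940 in UM. The p75-sorted and OFT arrays overlapped and both lay below LM and UM, and the p75-sorted difference was -0.60 ± 0.15 (adjusted p 0.00568). Tyms, which makes thymidylate, read 33.8 and 25.2 in p75-sorted cells against 62.4 to 84.8 on the other 6 arrays, a difference of -0.78 ± 0.14 (adjusted p 0.000776). Its probe set was the dimmest of the members, so its fold is the most compressed by the added 32. Rrm1, the large subunit, read 1516 to 1967 over all 8 arrays and differed by 0.03 ± 0.14 (adjusted p 0.902).

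The subunits of the replicative helicase gave calls in both directions. Mcm7 read 4451 and 5191 in p75-sorted cells against 2558 to 4144 elsewhere and was higher by 0.57 ± 0.16 (adjusted p 0.0107). Mcm4 read 1518 and 1362 against 1784 to 2292 elsewhere and was lower, at -0.46 ± 0.14 (adjusted p 0.0189). The other 4 helicase subunits gave 0.37 for Mcm2, 0.19 for Mcm3, -0.05 for Mcm5 and -0.12 for Mcm6, none past the threshold on the brightest probe set. A dimmer probe set of Mcm2 passed at 0.53 ± 0.16 (limma adjusted p 0.0166). For Mcm3 a dimmer one passed in the other direction, at -0.97 ± 0.15 (adjusted p 0.000227). The calls of Mcm7 and Mcm4 were not firm: Mcm7 missed the threshold under 4 of 17 alternatives in processing and Mcm4 under 6.

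The remaining replication members were the clamp and the loading factors. Pcna, the sliding clamp of the polymerases, read 4351 and 4172 in p75-sorted cells against 4560 to 8606 elsewhere, -0.47 ± 0.18 with an adjusted p of 0.0464, a call lost under 10 of 17 alternatives. Cdc6, which loads the helicase, gave -0.41 ± 0.16 and missed the threshold at an adjusted p of 0.0501. Its partner Cdt1 gave -0.21, and Gins2, a subunit of the active helicase, gave 0.08. Both signs depended on the probe set. The second brightest gave 0.47 ± 0.15 for Cdt1 (limma adjusted p 0.0193) and -0.32 ± 0.16 for Gins2 (adjusted p 0.127).

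The mitosis members lower in p75-sorted cells were led by spindle and chromosome proteins. Kif11, the kinesin that pushes spindle poles apart, read 334 and 363 in p75-sorted cells, 758 and 857 in LM, 689 and 600 in OFT, and 832 and 902 in UM. The p75-sorted arrays lay far below all 6 others, at -1.07 ± 0.15, 2.1-fold, with a limma adjusted p of 0.000114. Birc5, the survivin subunit of the chromosomal passenger complex, read 765 and 768 in p75-sorted cells, 1981 and 1504 in LM, 1223 and 1293 in OFT, and 1502 and 1714 in UM. These groups did not overlap either, and the difference was -0.96 ± 0.16 (adjusted p 0.000392).

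Nusap1, a microtubule binding protein of the spindle, read 826 and 735 in p75-sorted cells, 1473 and 1522 in LM, 1096 and 1366 in OFT, and 1541 and 1508 in UM. Its difference was -0.83 ± 0.15 (adjusted p 0.000772), with no overlap. The spindle checkpoint kinase Bub1 gave -0.87, the centromere kinesin Cenpe -0.73 and the late mitotic kinesin Kif20a -0.68. The spindle pole kinase Aurka gave -0.58, the chromosome untangling enzyme Top2a -0.57 and the mitotic kinase Cdk1 -0.48. Adjusted p-values of these 6 ran from 0.00243 for Bub1 to 0.0308 for Cdk1, which lost its call under 7 of 17 alternatives, and Cenpe gave 0.12 on its second probe set.

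A pair of mitosis members was higher in p75-sorted cells. Bub1b, which encodes the checkpoint protein BubR1, read 1458 and 1488 in p75-sorted cells, 803 and 577 in LM, 622 and 470 in OFT, and 512 and 641 in UM. The p75-sorted arrays lay above all 6 others and close to each other, at 1.26 ± 0.17, 2.4-fold, with an adjusted p of 0.000117. Cdca8, the borealin subunit of the same passenger complex as Birc5, read 2088 and 2468 against 1129 to 1864 elsewhere, 0.60 ± 0.16 with an adjusted p of 0.00709. The direction of Cdca8 depended on the probe set: its 1 probe set of neither the x nor the s type gave -0.45 ± 0.16 (adjusted p 0.0342). Aurkb, the kinase of that complex, gave 0.01 ± 0.17 (adjusted p 0.975).

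The most used proliferation markers did not order the origins in 1 way. Mki67, which coats mitotic chromosomes, read 3460 and 4303 in p75-sorted cells, 3774 and 2450 in LM, 3029 and 2535 in OFT, and 2403 and 3220 in UM. Its groups overlapped, and the difference of 0.43 ± 0.20 missed the threshold (adjusted p 0.0936), while Top2a, above, was lower. The cyclins Ccna2 and Ccnb2 gave -0.23 and -0.35, Cdc20, the activator of chromosome separation, gave -0.07, and the Polo kinase Plk1 gave 0.28. The centromere histone Cenpa, the midbody kinesin Kif23 and the spindle factor Tpx2 gave -0.03, 0.20 and 0.04, and none of these 7 passed the threshold.

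**Figure D2:**
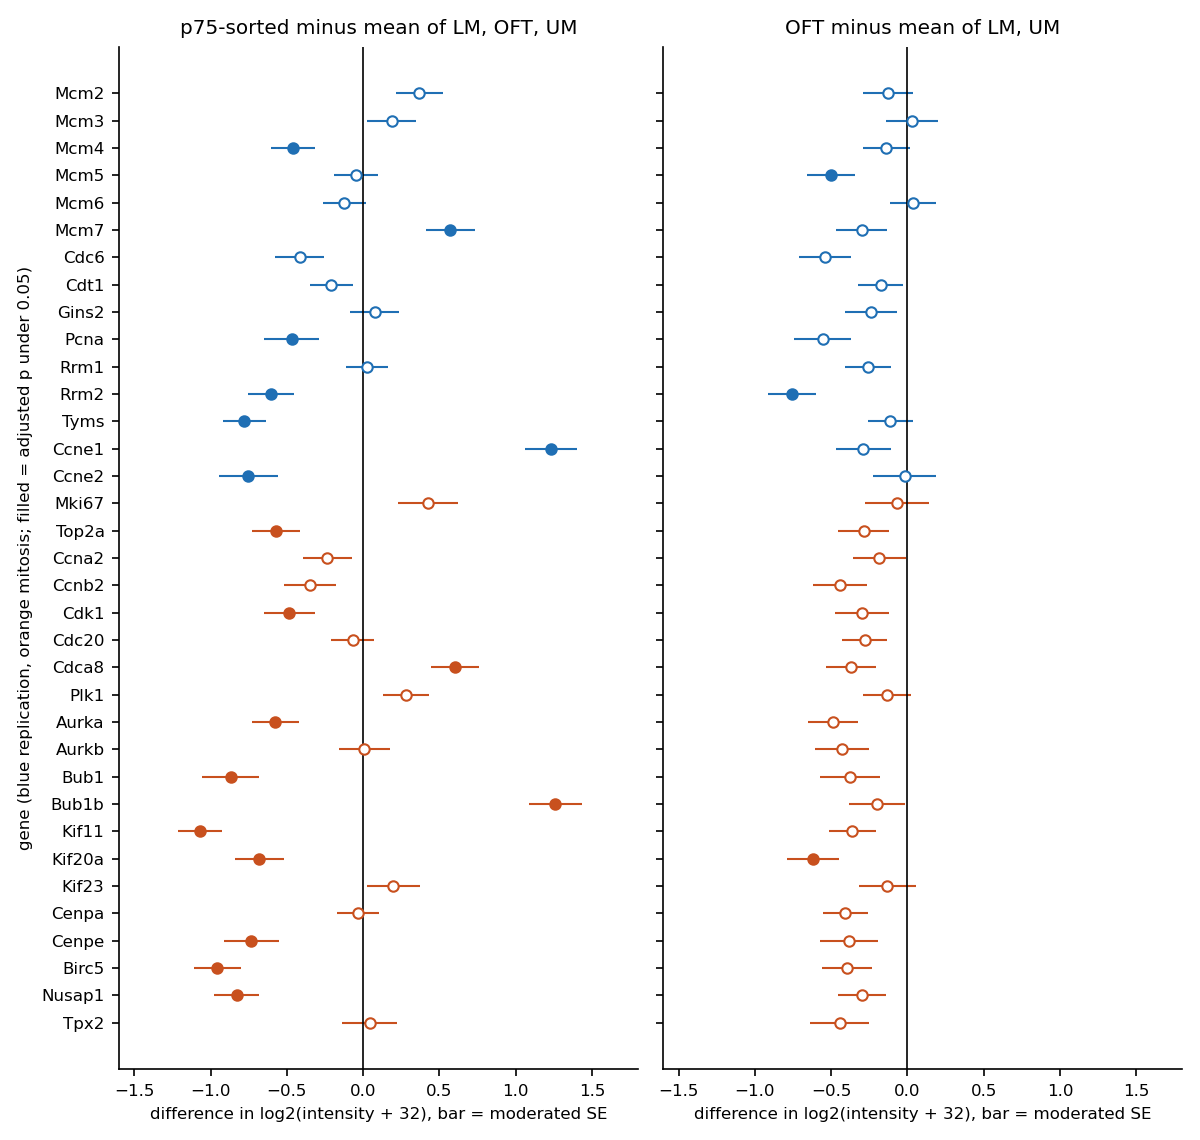
Differences in log2(intensity + 32) of p75-sorted cells from the mean of LM, OFT and UM (left) and of OFT from the mean of LM and UM (right), with the moderated SE as bars. Blue is replication, orange is mitosis, and filled points passed an adjusted p under 0.05. On the left 4 members are filled above 0 and 14 below it. On the right 33 of 35 points lie below 0 and 3 are filled.

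Where a gene had several probe sets, these often differed in p75-sorted cells. The members had 82 probe sets, of which 75 were tested in a fit over 25637 probe sets. In that fit 9 member probe sets were higher and 27 lower in p75-sorted cells, against 22.7% and 24.5% of all probe sets. Among 26 genes with several tested probe sets, the sign of the difference varied within 12, and the median spread within a gene was 0.40. All tested probe sets of a gene were called lower for 6 genes and called higher for 0. The number of genes with calls in both directions was 1, Cdca8, whose probe sets gave 0.60, 0.76 and -0.45. These counts by gene were not taken over all genes, so they have no background here.

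The brightest probe set was thus a choice that set the size of several values. Rrm1 gave 0.03 on its brightest probe set and -1.93 ± 0.22 on the next, whose mean intensity of 1477 was near the 1784 of the first. Kif23 gave 0.20 on the brightest and -1.43 ± 0.16 on a dimmer one. Rrm2 gave -0.60, -1.29 and -1.94, and Kif11 gave -1.07, -1.96 and -0.99, so both were lower on every probe set.

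All 4 members called higher in p75-sorted cells rested on x or s type probe sets, which may also detect other transcripts. Without probe sets of these types, 1 of 34 members, Bub1b, was higher, against 3654 of all 13246 genes. In that fit 16 members were lower, against 2696 of all 13246 genes. The Ccne1 value of 1.23 came from a probe set of the x type, which can bind related sequences, and the other Ccne1 probe set gave 0.33 ± 0.15 and did not pass. The Bub1b value of 1.26 came from an s type probe set, shared among transcripts by design, and the others gave 0.46 ± 0.15 and -0.10 ± 0.17. The brightest probe sets of Mcm7 and Cdca8 were of the s type too. The Gapdh 3′ to 5′ ratio and the 18S signal given above also separated the p75-sorted arrays from the rest, and their part in these differences between probe sets was not tested.

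**Figure D3:**
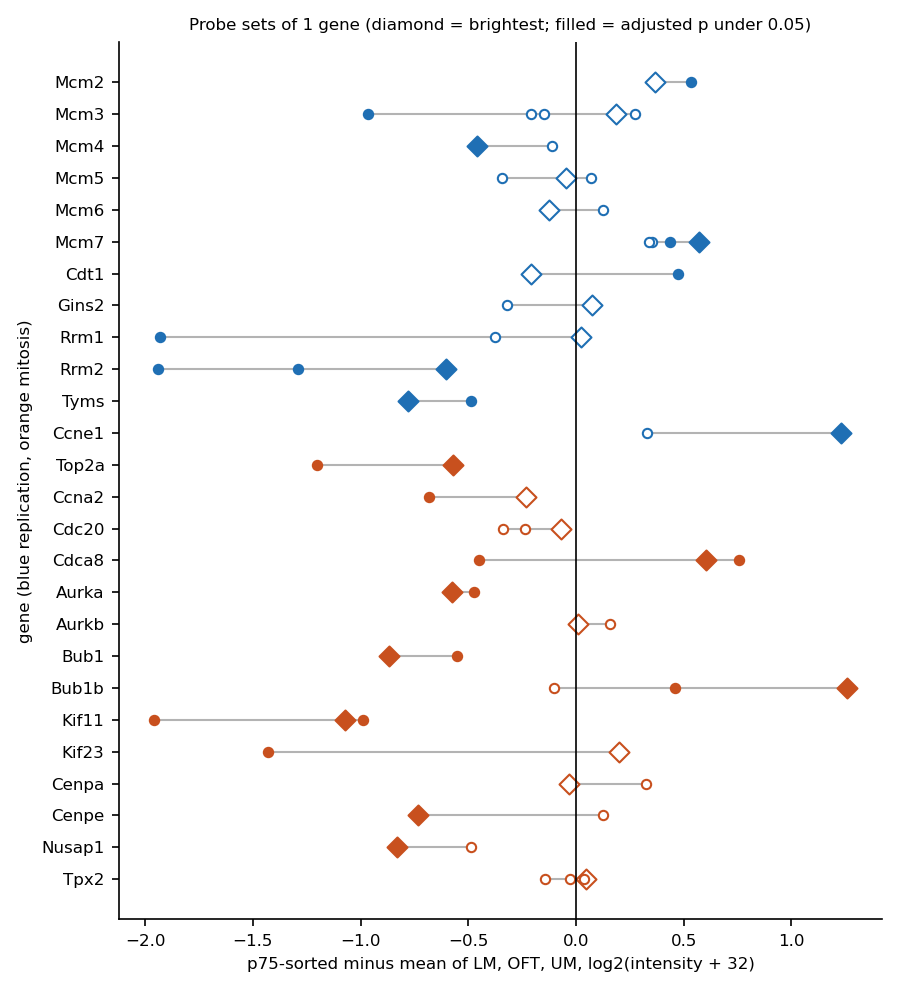
Each point is a tested probe set of a member with several, placed by its difference in log2(intensity + 32) between p75-sorted cells and the mean of LM, OFT and UM. Diamonds are the brightest probe sets, filled symbols passed an adjusted p under 0.05, and grey lines join the probe sets of a gene. Rrm1 spans 0.03 to -1.93, and all 3 points of Kif11 and of Rrm2 lie below 0.

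Other genes of the same processes were counted from lists of further replication and mitosis genes. Of 39 other replication genes tested, 13 were lower in p75-sorted cells, 33.3% against 19% of all genes, and 8 were higher, 20.5% against 28.3%. The lower ones were led by the clamp loader subunit Rfc3 (-1.62), the DNA polymerase alpha subunit Pola1 (-1.37) and the single strand binding subunit Rpa3 (-1.27), and the flap nuclease Fen1 was higher (1.06). Of 44 other mitosis genes, 20 were lower, 45.5%, and 5 higher, 11.4%, with a median of -0.34. The largest were decreases of the kinesin Kif18a (-1.48), the kinetochore gene Cenph (-1.43), the ubiquitin ligase partner Ube2c (-1.42) and the checkpoint kinase Ttk (-1.30). Adjusted p-values of these 8 genes were at most 0.00451.

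Genes that control the exit from the cycle were also measured. Of 25 G1 cyclins, kinases, inhibitors and pocket protein partners tested, 8 were higher in p75-sorted cells, 32% against 28.3% of all genes, and 7 were lower, 28% against 19%. The inhibitors of cyclin kinases differed in direction. Cdkn1b (-1.53 ± 0.17, adjusted p 2.57e-05) and Cdkn2d (-1.46 ± 0.16, adjusted p 2.67e-05) were lower, while Cdkn1a (0.99 ± 0.24, adjusted p 0.00454) and Cdkn1c (0.88 ± 0.20, adjusted p 0.00324), named after their values were seen, were higher. The factor E2f5 was lower (-1.08) and the repressor E2f8 higher (1.06), with adjusted p-values of 0.00205 and 0.000197.

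Cell type markers moved along with this comparison. Over the p75-sorted arrays the summed intensity of 6 measured neural crest markers was 7690 to 8428, against 953.4 to 2272 elsewhere. For 10 of 11 neuron markers it was 3575 to 6257 against 622.2 to 5198, for 7 mesenchyme markers 4462 to 4594 against 4150 to 11060, and for 6 endothelial markers 220.7 to 227.4 against 731.9 to 1550. The epithelial markers, 7 of 7 measured, summed to 446 to 506.3 against 1380 to 2491, and 6 of 7 erythroid markers to 15080 to 17830 against 19300 to 46120. At or below the filter intensity of 19.4 lay Pecam1 on both p75-sorted arrays and Tie1, Emcn and Krt14 on the mutant one. On these arrays 0 crest, neuron, mesenchyme or erythroid markers did. Their part in the differences of the members was not tested.

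OFT was compared with the mean of LM and UM, and the members leaned to 1 side. Of the 35 members 33 lay below 0, against 48.2% of all genes, and all 20 mitosis members did. The median was -0.24 for replication and -0.37 for mitosis members, against 0.01 for all genes. Under quantile normalization 32 of 35 lay below 0, with medians of -0.14 and -0.34. Few of these differences passed alone: 3 were lower, 8.57%, against 3.88% of all genes, and 0 were higher in limma, against 11.3%. At an unadjusted p under 0.05 there were 13, against 3871 of all 13543 genes.

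The 3 members that passed were 2 replication genes and a kinesin. Rrm2, whose values are given above, was lower in OFT, at -0.75 ± 0.16 (moderated SE, 2 against 4 arrays, adjusted p 0.00663). Its OFT arrays at 2396 and 2921 lay below LM and UM at 3940 to 5019. Kif20a, needed for the end of cell division, read 547 and 563 in OFT, 1077 and 777 in LM, 775 and 879 in UM, with 508 and 407 after the p75 sort. Its OFT arrays lay below those of LM and UM, at -0.62 ± 0.17 (adjusted p 0.029).

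Mcm5, a helicase subunit, read 1730 and 2072 in OFT, 2871 and 2892 in LM, 2661 and 2386 in UM, with 2238 and 2399 after the p75 sort. OFT was the low origin, at -0.50 ± 0.16 (adjusted p 0.0475). This call stood close to the threshold, as did the miss of Cdc6 at -0.54 ± 0.17 (adjusted p 0.0503). Aurka at -0.49 and Pcna at -0.56 followed, with adjusted p-values of 0.065 and 0.0686. Mcm3 and Mcm6 were the members above 0, at 0.03 and 0.04 on their brightest probe sets. A dimmer probe set of Mcm3 was lower, at -0.66 ± 0.16 (limma adjusted p 0.016), and its others gave 0.004, 0.01 and -0.15. The dimmer tested probe set of Mcm6 gave -0.35 ± 0.19 (adjusted p 0.266).

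The count of 3 depended on the arrays and settings. It was 0 with a pseudocount of 1 in place of 32, where 222 of all 13543 genes were lower, against 526 in the main fit. Without either OFT array it fell and without the UM control it rose, while the lower calls over all genes fell in each of these fits. In the fit of all probe sets 11 of 75 member probe sets were lower and 0 higher, with limma, against 5.01% and 8.57% of all probe sets, and 9 of the 11 were not the brightest of their gene. All 3 probe sets of Rrm2 were lower, at -0.75, -0.69 and -1.08. The brightest of Kif11 gave -0.36 (adjusted p 0.16), and its other probe sets were lower, at -0.77 and -0.65.

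The further genes leaned the same way in OFT. All 39 other replication genes and 40 of 44 other mitosis genes lay below 0. In each list 5 were lower, with limma, 12.8% and 11.4% against 3.88% of all genes, and 0 were higher. The replication genes were led by the clamp loader subunit Rfc4 (-0.73), the primase Prim1 (-0.71), Rfc3 (-0.65) and Gins1 (-0.61). The mitosis genes were led by Cenph (-0.80), Cdca3 (-0.76), the phosphatase Cdc25c (-0.74) and the kinase Melk (-0.74), and adjusted p-values of these 8 were at most 0.0265. An unadjusted p under 0.05 was found for 16 of the 39 and 23 of the 44, and for 3871 of all 13543 genes.

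Of the G1 and exit genes, Cdkn2b, an inhibitor of the cyclin D kinases, was higher in OFT by 1.23 ± 0.20 (adjusted p 0.00102), and Mycn was lower, at -0.48 (adjusted p 0.0487). The tissue markers differed too. The 8 cardiac markers summed to 18940 to 21510 in OFT and 67.52 to 974.5 in LM and UM, where 7 of 8 lay at or below the filter intensity on the UM control array. The 5 smooth muscle markers summed to 5821 to 6279 against 126.2 to 956.5, the neuron markers to 3410 to 5198 against 622.2 to 1966, and the mesenchyme markers to 4150 to 5015 against 9088 to 11060. The erythroid markers, 6 of 7 measured, summed to 19300 and 23370 in OFT against 27860 to 46120, and the 18S ribosomal RNA control read 1228 and 792.5 against 313.9 to 500.4. Their part in the lower values of the members was not tested.

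LM and UM did not differ detectably in any member. In limma 0 of 35 passed, with backgrounds of 0.738% higher and 0.82% lower, and 1 had an unadjusted p under 0.05. This was the licensing factor Cdt1, at 1908 and 1616 in LM and 1360 and 1309 in UM, 0.39 ± 0.17 with an adjusted p of 0.557. Medians were 0.19 for replication and 0.09 for mitosis members. Of the other genes counted, the inhibitor Cdkn1c was higher in LM by 1.48 ± 0.24 (adjusted p 0.00683).

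FAK mutant and control arrays were then compared over the 4 origins. No member passed: 0 of 35 with limma, against a background of 0% of all genes, where the smallest adjusted p was 0.75. The differences ran from -0.23 ± 0.14 for Mcm2 to 0.35 ± 0.15 for Ccne1, with medians of 0.01 for replication and -0.03 for mitosis members and -0.01 for all genes. Ccne1 was the 1 member with an unadjusted p under 0.05, at 0.0355 with an adjusted p of 1, in a family where 410 genes had such a p. It was higher in the mutant in 3 of 4 pairs, by 0.79 after the p75 sort, 0.33 in OFT and 0.36 in UM, and gave -0.08 in LM. These values came from its x type probe set, and its other probe set gave 0.03 ± 0.13 over the 4 origins. A miss of the threshold with 1 array per origin and genotype does not show that the genotypes were alike.

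Within the pairs there is 1 array per genotype, so these differences have no test. In 0 of 35 members did any pair reach 2-fold. Few genes did at all: 55, 77, 27 and 30 of all 13543 in the p75, LM, OFT and UM pairs. The sign was the same in all 4 pairs for 3 members, Cdt1 and Tyms being lower and Cdc20 higher, against 9.18% of all genes. The lowest differences were -0.69 for Cenpe and -0.62 for Mki67, both in LM, and the highest were 0.79 for Ccne1 in p75-sorted cells and 0.60 for Ccne2 in LM.

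The LM and UM pairs mirrored each other. Among mitosis members, 14 of 20 were lower in the mutant in LM, with a median of -0.29, against 55% of all genes. In UM 15 of 20 were higher in the mutant, with a median of 0.15, against 7686 of all 13543 genes. The replication members did not mirror as a class: 8 of 15 were lower in LM and 9 of 15 in UM, with medians of -0.08 and -0.05. Gene by gene, their LM and UM differences correlated at r = -0.82. Mki67 read 3774 in the LM control and 2450 in the LM mutant, and 2403 in the UM control and 3220 in the UM mutant. Pcna read 8606 and 5982 in LM and 5419 and 7339 in UM, and Cenpe read 1235 and 755 in LM and 788 and 975 in UM. Ccne2 ran opposite to these, at 371 and 577 in LM and 445 and 320 in UM, as did Bub1 at 1152 and 1522 and at 1569 and 1157.

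Over the 35 members the differences of the LM and UM pairs, which share no array, correlated at r = -0.83 and rho = -0.81, and 26 members, 74.3%, had opposite signs. The OFT pair, which shares no array with either, ran with LM at r = 0.62 and against UM at r = -0.60, and the p75 and LM pairs gave r = -0.01. The mirror was not confined to these genes. Over all 13543 genes r was -0.34 and 63.6% had opposite signs, and over 2799 genes with a mean log2 value above 9, a limit chosen after the data were seen, r was -0.77 and 77.4% had opposite signs. With quantile normalization the values were -0.81 for the members and -0.75 for the bright genes. The points share the same 4 arrays, and members of 1 process are not independent.

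Some array values moved along with this pattern. The geometric mean of the cre spike controls was 27000 in the LM control and 14420 in the UM mutant, and it lay between 5995 and 11960 on the remaining 6 arrays. The share of probe sets at or below the filter intensity was 37.4% and 36.4% on those arrays and 39.6% to 41.9% on the rest. The OFT control and mutant differed little in these, at 10510 and 10000 for the cre spike controls and 41.3% and 41.2% for the share. The geometric mean of the bio spike controls was 1885 and 995.1 in the LM control and mutant. In the UM control and mutant it was 888.2 and 855.8, so it was not raised in the UM mutant. Erythroid markers, 6 of 7 measured with none at or below the filter intensity, summed to 46120 and 29870 in the LM control and mutant and to 27860 and 38140 in the UM control and mutant. Hbb-bh1, Hbb-y, Hba-x and Alas2 ran with these sums. Slc4a1 ran the other way, at 319.2 and 433.9 in LM and 468.9 and 402.9 in UM. Klf1 was lower in the mutant in both pairs, at 84.02 and 44.02 in LM and 53.88 and 51.18 in UM. The part of these array and marker values in the mirrored differences was not tested.

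**Figure D4:**
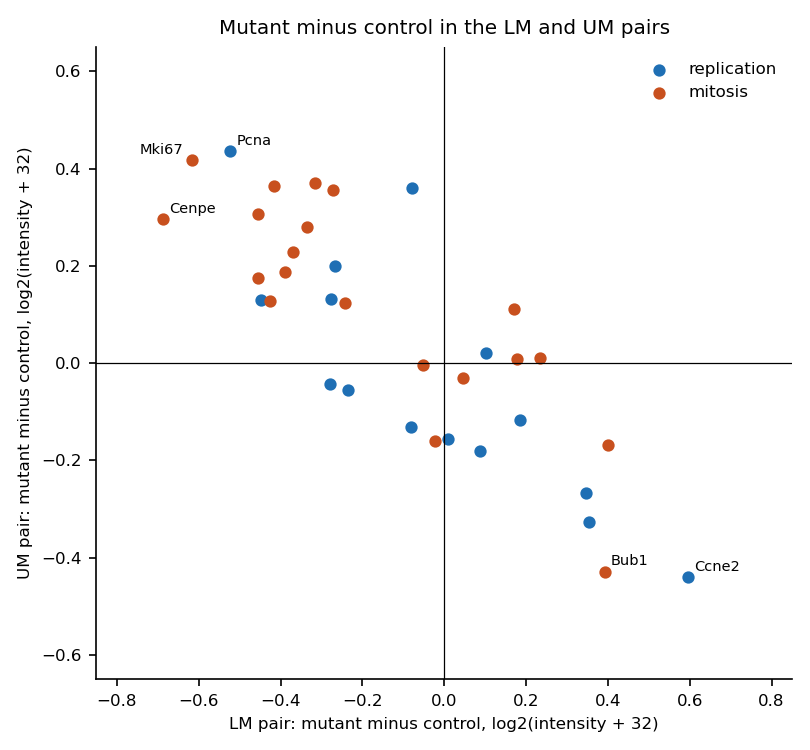
Each point is a member, placed by its mutant minus control difference in log2(intensity + 32) in the LM pair (horizontal) and in the UM pair (vertical), 1 array per genotype and origin. Blue is replication and orange is mitosis, and members are named where the absolute values of both differences add up to at least 0.8. Of the 35 points 17 lie lower in LM and higher in UM, and 9 lie higher in LM and lower in UM.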

How the data were processed

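Per the labels, total RNA of 8 samples was hybridised to Affymetrix arrays. The authors deposited linear intensity values for 45101 probe sets; the software, background method and probe summary are not given in the sources used here. The mean between the 2nd and 98th percentiles was 150.001 on every array, so the values had been scaled to a common mean. No further scaling was applied.

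Of the probe sets, 64 were controls, 34945 were annotated to 1 gene, 932 to several and left out, and 9160 were unlisted. Intensities were taken as log2(intensity + 32). A gene was tested if at least 2 arrays exceeded the 40th percentile, 19.4. The fit used limma 3.58.1 in R 4.3.3 (lmFit, eBayes), with a term per origin and 1 for genotype, 3 residual and 9.05 prior degrees of freedom, and Benjamini-Hochberg adjustment over 13543 genes at 0.05. Values after ± are moderated SEs. Pairing of control and mutant came from the origin label. Deviations from the genotype means correlated within origins at 0.878 (p75), 0.618 (LM), 0.791 (OFT) and 0.667 (UM), which tissue alone could give. The scripts were tested on simulated data. The number of arrays limits the precision.

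All members may be named, and of other lists up to 4 called genes with the largest change per comparison. Members and lists were chosen with earlier results of these data known. Alternatives were the pseudocount, the filter, quantile normalization, the probe set rule, an intensity trend, the model terms and leaving out arrays.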

Additional observations from a re-analysis of the deposited data

Results flagged for a closer look

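Members whose mutant minus control differences ran in opposite directions between origins by at least 0.4 on the log2 scale are given here. Each value is 1 mutant against 1 control array, and the differences between origins were not tested. Pcna was -0.522 in LM and 0.435 in UM. Mki67 was -0.617 in LM and 0.417 in UM. Ccne2 was 0.596 in LM and 0.433 in OFT, and -0.44 in UM.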

How the results depend on the processing

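For mutant against control and LM against UM, 0 members passed in limma under every alternative run, the fit with no replicate block (no origin term) included, with smallest adjusted p-values of 0.836 and 0.253. The p75 count of 18 ran from 8 to 19 with 1 array left out, and the any-origin count of 17 from 6 to 18; a pseudocount of 1 gave 7. Over all 13543 genes the p75 calls of the main fit were 3834 higher and 2578 lower. Both also fell when either p75-sorted array was left out, so that fall was not confined to the members. The OFT count of 3 is given with the lower calls over all genes in parentheses, 526 of 13543 in the main fit. It became 0 with a pseudocount of 1 (222) and 7 with 64 (558). Averaging all probe sets of a gene gave 8 (794 of 12985), and leaving out x and s type probe sets gave 5 (560 of 13246). An intensity trend gave 5 (557) and the fit without the genotype term gave 5 (617). The OFT count also varied with 1 array left out, and it was 8 (660 of 12192) with the second brightest probe set. That alternative was chosen after seeing the data, as were leaving out both p75-sorted arrays and quantile normalization of the pairs. In p75-sorted cells Cdca8 turned to -0.448 without x and s type probe sets and Cenpe to 0.124 with the second brightest. Kif11, Birc5, Nusap1 and Bub1b kept their calls in all 17 alternatives, while Pcna lost it in 10, Cdk1 in 7 and Mcm4 in 6. Birc5 has 1 probe set, of neither the x nor the s type, so the other probe set rules could not change its difference. In OFT, Mcm5 lost it in 14 of 18, Kif20a in 5 and Rrm2 in 2. The cause was not tested.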
